A study of Mus musculus with 24 samples.

Results

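Hes1, Hes5, Hes6, Hey1, Hey2 and Heyl encode 6 transcriptional repressors of the basic helix-loop-helix class that carry an Orange domain. They were chosen by name, as the genes whose symbol in the deposited values is one of these 6, and all 6 were found among 26636 genes. When a Notch receptor is cut after it meets a ligand on a neighbouring cell, its intracellular part joins the DNA-binding protein RBPJ and switches on Hes1, Hes5 and the Hey genes. The proteins of Hes1 and Hes5 bind DNA with Groucho/TLE corepressors, repress proneural genes such as Neurog2, and keep cells of the embryonic cortex as progenitors. Hes6 differs: it is known in mouse as an antagonist of Hes1 that favours neuronal differentiation, and its transcription does not depend on Notch in the way that of Hes1 and Hes5 does.

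RNA was sequenced from neural progenitor cells (NPCs) of the cortex of C57BL/6 mouse embryos at embryonic day 12, which had been expanded in culture with B27 and basic fibroblast growth factor and were used at passage 3. In differentiation medium, the cells received (+)-JQ1 or (−)-JQ1 at 0.2 or 0.5 µM for 12 or 24 h. (+)-JQ1 is a small molecule that blocks BET bromodomains, the domains by which BET proteins hold on to acetylated histones, and (−)-JQ1 is its mirror image, described as inactive. The 8 groups hold 3 libraries each, from 3 independent NPC preparations per the labels, 24 libraries in all, and every group had differentiation medium and one of the enantiomers. The series asks how blocking BET bromodomains bears on the formation of neurons and glia.

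Values are FPKM, fragments scaled by transcript length and by the mapped reads of the library. They do not carry the number of reads. Steps between the low values of 1798 genes put the depth of the libraries relative to each other at 0.95 to 1.05. In 2 libraries the short RNA Mir5105 held 46.9% of the summed FPKM ((+)-JQ1, 0.2 µM, 24 h, replicate 2) and 42.7% ((−)-JQ1, 0.2 µM, 24 h, replicate 1), against at most 6.69% in the other 22, so the tested changes of the 6 genes that these libraries move are also given without them. The 10 markers of neural stem cells and radial glia summed to 4330 to 7276 FPKM (median 5440) in (+)-JQ1 libraries and 3160 to 5378 FPKM (median 3598) in (−)-JQ1 libraries, and none was at 0 in all of either. The 8 markers of microglia summed to at most 0.624 FPKM in (+)-JQ1 libraries and 1.53 FPKM in (−)-JQ1 libraries, with Aif1 and C1qa at 0 in all 24. The 8 markers of endothelium summed to at most 2.71 FPKM in (+)-JQ1 libraries and 6.85 FPKM in (−)-JQ1 libraries. Of these, Cdh5 and Cldn5 were at 0 in all 24, while Kdr averaged 1.16 FPKM in (+)-JQ1 and 3.14 FPKM in (−)-JQ1 libraries.

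The 6 genes covered a wide range of levels, and their order was the same in every library. Over the 12 libraries of each enantiomer, Hes5 had a median of 134 FPKM in (+)-JQ1 and 65.9 FPKM in (−)-JQ1 libraries. Hes6 followed with 82.1 FPKM in (+)-JQ1 and 47.3 FPKM in (−)-JQ1 libraries, then Hey1 with 25.5 and 23.4 FPKM. Hes1 had 15.1 FPKM in (+)-JQ1 and 12.0 FPKM in (−)-JQ1 libraries, and Hey2 had 8.65 and 4.72 FPKM, again in that order of enantiomers. Heyl was nearly undetected, at 0.0192 FPKM in (+)-JQ1 and 0.0818 FPKM in (−)-JQ1 libraries. FPKM is scaled by transcript length, so these levels can be compared between genes. Each gene of this order was above the next in 12 of 12 (+)-JQ1 libraries and in 12 of 12 (−)-JQ1 libraries, so that no neighbours overlapped within a library. Among the 5 higher genes, the ratio between neighbours moved most for Hes6 over Hey1, whose median was 3.02 in (+)-JQ1 and 1.93 in (−)-JQ1 libraries, while Hey1 over Hes1 had 1.92 and 1.89, given in the same order.

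**Figure D1:**
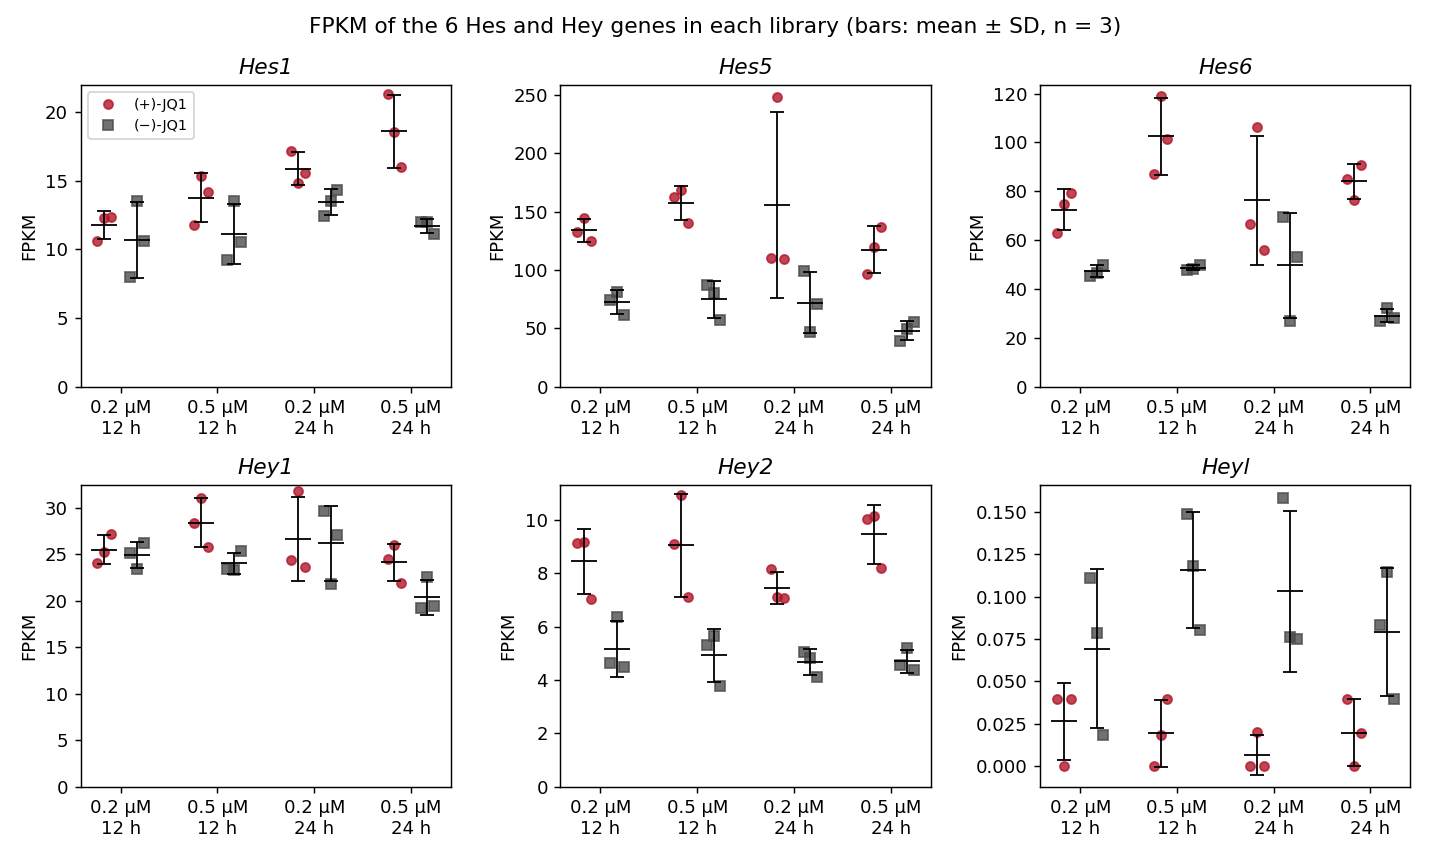
FPKM of each of the 6 genes (y axis, linear, a scale of its own for each gene) in every library, by dose and time (x axis), with circles for (+)-JQ1 and squares for (−)-JQ1; bars give mean ± SD of 3 libraries. For Hes5 and Hey2 all circles lie above all squares at each dose and time, while Hey1 overlaps in 3 of the 4 comparisons and Heyl is lower in (+)-JQ1.

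Hes5, Hes6, Hey2 and Hes1 were higher under (+)-JQ1 than under (−)-JQ1, Hey1 was not called, and Heyl was lower. Changes were tested with limma on log2(FPKM + 1), a scale that understates the fold change of low genes. The test covered the 13801 genes that reached 1 FPKM in 3 or more libraries, and those with a p under 0.05 after Benjamini-Hochberg adjustment over this whole set are called here. 5 of the 6 genes passed that filter and Heyl did not. Averaged over the 4 comparisons at matched dose and time, 4 of the 5 were called higher and none lower, where 61.3% of all genes tested were called and 23.1% were called higher. By comparison, 2 of 5 were called higher at 0.2 µM and 12 h, where 27.9% of genes were called and 8.23% called higher. At 0.5 µM and 12 h it was 3 of 5, beside 38.3% called and 12.2% called higher. At 0.2 µM and 24 h it was 3 of 5, beside 32.8% called and 11% called higher, and at 0.5 µM and 24 h 4 of 5, beside 38.2% called and 13.7% called higher. In these bulk samples, more or fewer cells of a type and more or less RNA per cell cannot be told apart.

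The direction of calls over all genes depends on the scaling. Median-of-ratios scaling, which sets each library by the median of its genes' ratios to their geometric means, raised the median log2 fold change of all genes by 0.08 to 0.10 in the 4 comparisons, with 0.102 at 0.5 µM and 12 h. The genes called higher were then 51.2% of those called in the average comparison, against 37.7% with the deposited values, and 32.7% of the genes tested. Under either scaling, none of the 5 genes tested was called lower in any of the 4 comparisons or in their average.

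**Figure D2:**
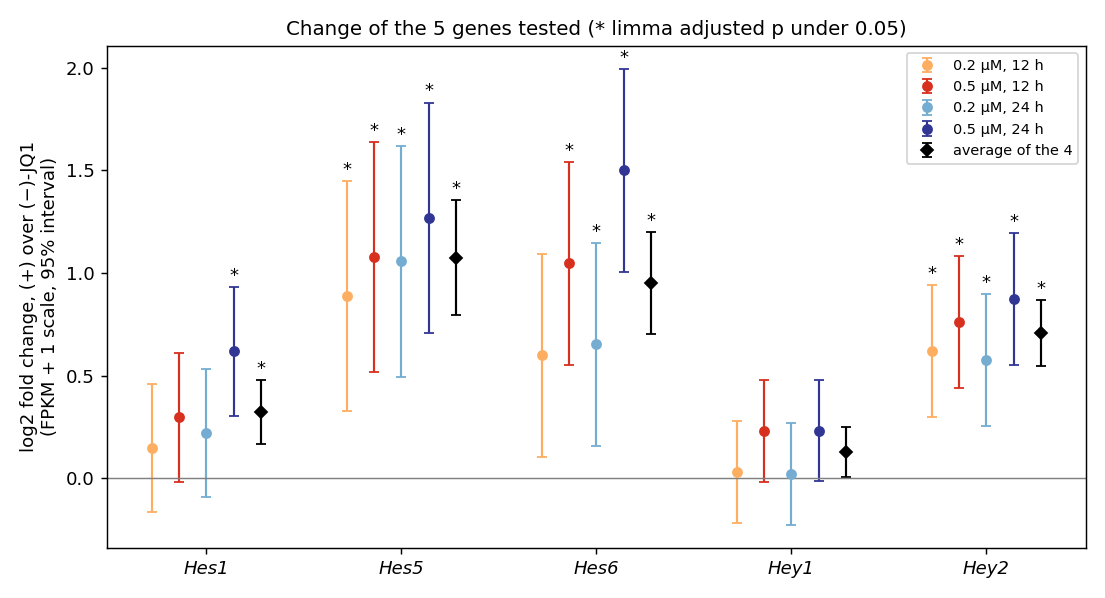
Log2 fold change of (+)-JQ1 over (−)-JQ1 on the FPKM + 1 scale (y axis) for the 5 genes tested (x axis), at each dose and time and as the average of the 4 comparisons, with 95% confidence intervals; asterisks mark limma adjusted p under 0.05. The averages are 1.07 for Hes5, 0.95 for Hes6, 0.71 for Hey2, 0.32 for Hes1 and 0.13 for Hey1, the last without an asterisk.

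Hes5 is a Notch effector of cortical progenitors that acts beside Hes1. At 12 h it stood at 132, 145 and 125 FPKM in the (+)-JQ1 libraries with 0.2 µM, against 74.5, 81.2 and 61.3 FPKM in the (−)-JQ1 libraries. With 0.5 µM it stood at 163, 168 and 141 FPKM in (+)-JQ1, against 87.2, 80.6 and 56.9 FPKM in (−)-JQ1. The lowest (+)-JQ1 library was above the highest (−)-JQ1 library at both doses. At 24 h and 0.2 µM the values were 109.9, 248 and 109.8 FPKM in (+)-JQ1, against 98.8, 46.7 and 70.5 FPKM in (−)-JQ1. At 0.5 µM they were 96.2, 119.8 and 136.6 FPKM in (+)-JQ1, against 39.6, 49.2 and 55.8 FPKM in (−)-JQ1. Again the groups did not overlap, and the 248 and 98.8 FPKM at 0.2 µM came from the 2 libraries high in Mir5105. Every (+)-JQ1 library was above every (−)-JQ1 library in 16.8% of all genes tested at 0.2 µM and 12 h, in 20.7% at 0.5 µM and 12 h, in 11.7% at 0.2 µM and 24 h and in 18.7% at 0.5 µM and 24 h. That held in all 4 comparisons for 6.6% of the genes tested, among them Hes5 and Hey2.

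The log2 fold change of Hes5 was 0.89 ± 0.27 at 0.2 µM and 12 h (SE, limma adjusted p = 0.0168) and 1.08 at 0.5 µM and 12 h (adjusted p = 0.00297). It was 1.06 at 0.2 µM and 24 h (adjusted p = 0.0046) and 1.27 at 0.5 µM and 24 h (adjusted p = 0.000744). The average was 1.07 ± 0.13 (adjusted p = 5.74e-07). Without the 2 libraries high in Mir5105, the value at 0.2 µM and 24 h was 0.92 ± 0.22 (adjusted p = 0.00297). It was 0.67 ± 0.23 (adjusted p = 0.0336) without the (+)-JQ1 library of the pair alone and 1.31 ± 0.28 (adjusted p = 0.00113) without the (−)-JQ1 library alone. The call at 0.2 µM and 12 h was lost without replicate 2 of (+)-JQ1 (adjusted p = 0.0594) or replicate 3 of (−)-JQ1 (adjusted p = 0.0751), and the call at 0.2 µM and 24 h with a spread from its own 6 libraries alone (adjusted p = 0.0981).

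The sequence before the start site is shown for Hes5, Hey2 and Hes6, the 3 of the 6 genes for which the source used held one. Of these, Hes5 and Hey2 are textbook targets of RBPJ and Hes6 is not. The 250 bases before each start are from RefSeq on build GRCm38.p6, 5′ to 3′ on the strand of the gene, and capitals mark TGGGAA, the core letters of the RBPJ site, or TTCCCA, the same letters on the other strand. The source held no such sequence for Hes1, Hey1 and Heyl, which are named only. Hes5 is on the plus strand, at chr4:154960673-154960922. Hey2 is on the minus strand, at chr10:30842784-30843033. The first of the start sites listed for Hes6 is on the minus strand, at chr1:91414039-91414288.
Hes5: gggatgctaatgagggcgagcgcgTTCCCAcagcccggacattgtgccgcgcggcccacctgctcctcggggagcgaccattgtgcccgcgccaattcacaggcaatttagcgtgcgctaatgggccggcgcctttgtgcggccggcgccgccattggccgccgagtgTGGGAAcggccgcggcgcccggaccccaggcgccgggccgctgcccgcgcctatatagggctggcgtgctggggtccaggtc
Hey2: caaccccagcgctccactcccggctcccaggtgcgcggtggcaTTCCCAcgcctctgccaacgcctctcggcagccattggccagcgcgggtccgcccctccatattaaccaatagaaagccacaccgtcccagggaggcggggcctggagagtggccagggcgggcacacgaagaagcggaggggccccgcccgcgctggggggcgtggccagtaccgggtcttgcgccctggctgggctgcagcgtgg
Hes6: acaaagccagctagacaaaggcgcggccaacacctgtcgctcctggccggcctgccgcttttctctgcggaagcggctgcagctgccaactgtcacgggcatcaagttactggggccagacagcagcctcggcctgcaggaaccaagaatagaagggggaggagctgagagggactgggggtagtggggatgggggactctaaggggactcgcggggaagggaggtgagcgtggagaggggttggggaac
Hes5 holds the letters at 226 to 221 bases before its start as TTCCCA and at 82 to 77 bases as TGGGAA, and Hey2 at 207 to 202 bases as TTCCCA. Neither this window of Hes6 nor that before its other start site, at chr1:91413223-91413472, holds them. Of 32851 such windows in the genome table, 21.6% hold at least 1 match on either strand and 2.77% at least 2. The letters CACNAG, the N-box that Hes proteins bind, searched on both strands, occur once, in the second window of Hes6, and in 36.7% of all windows. A match describes letters and is not a measured binding site.

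Hes6 at 12 h and 0.2 µM stood at 63.1, 74.9 and 79.4 FPKM in (+)-JQ1 libraries, against 45.3, 46.5 and 50.0 FPKM in (−)-JQ1 libraries. At 0.5 µM it stood at 87.3, 118.9 and 101.4 FPKM in (+)-JQ1, against 48.0, 48.2 and 49.9 FPKM in (−)-JQ1. The (−)-JQ1 libraries at 12 h lay within 5 FPKM of each other, and all (+)-JQ1 libraries were above them. Such a separation held at 12 h for 16.8% of all genes tested at 0.2 µM and for 20.7% at 0.5 µM. At 24 h and 0.2 µM the values were 66.7, 106.3 and 56.0 FPKM in (+)-JQ1, against 69.5, 26.95 and 53.0 FPKM in (−)-JQ1. At 0.5 µM they were 84.9, 76.4 and 90.8 FPKM in (+)-JQ1, against 26.9, 32.1 and 28.3 FPKM in (−)-JQ1. The groups overlapped at 0.2 µM and 24 h, where the highest library of each enantiomer was the one high in Mir5105. They were far apart at 0.5 µM and 24 h, where 18.7% of all genes tested had every (+)-JQ1 library above every (−)-JQ1 library.

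The log2 fold change of Hes6 was 1.5 ± 0.24 at 0.5 µM and 24 h (SE, limma adjusted p = 3.15e-05), the largest of any Hes or Hey gene in the 4 comparisons. It was 1.05 at 0.5 µM and 12 h (adjusted p = 0.00132), and 0.95 ± 0.12 on average (adjusted p = 5.01e-07). At 0.2 µM it was 0.60 at 12 h, which was not called (adjusted p = 0.0654), and 0.65 at 24 h (adjusted p = 0.0393). Both of these lay near the threshold. The value at 0.2 µM and 24 h missed it with no filter on low values (adjusted p = 0.0606), with the spread of its own 6 libraries (0.278), and without replicate 1 (0.0503) or 2 (0.39 ± 0.23, adjusted p = 0.218) of (+)-JQ1 or replicate 2 of (−)-JQ1 (0.27 ± 0.19, adjusted p = 0.282). The value at 0.2 µM and 12 h passed it with median-of-ratios scaling (0.69, adjusted p = 0.0194), with the spread of its own 6 libraries (adjusted p = 0.00144), and when replicate 2 of (+)-JQ1 (0.0364) or replicate 1 (0.0308) or 2 (0.0102) of (−)-JQ1 at 0.2 µM and 24 h was left out of the shared spread. Without the 2 libraries high in Mir5105 both were called, with 0.60 at 12 h (adjusted p = 0.00991) and 0.68 ± 0.21 at 24 h (adjusted p = 0.0177).

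Hes1 is the broadly expressed Notch effector whose level oscillates in single progenitors. At 12 h it stood at 10.6, 12.3 and 12.4 FPKM in (+)-JQ1 libraries with 0.2 µM, against 7.99, 13.5 and 10.6 FPKM in (−)-JQ1 libraries. With 0.5 µM it stood at 11.8, 15.3 and 14.2 FPKM in (+)-JQ1, against 9.24, 13.5 and 10.5 FPKM in (−)-JQ1. The enantiomers overlapped at both doses. At 24 h and 0.2 µM the values were 17.2, 14.9 and 15.5 FPKM in (+)-JQ1, against 12.5, 13.5 and 14.4 FPKM in (−)-JQ1, and at 0.5 µM 21.3, 18.5 and 15.99 FPKM in (+)-JQ1, against 12.0, 12.0 and 11.1 FPKM in (−)-JQ1. All (+)-JQ1 libraries were above all (−)-JQ1 libraries at 24 h, as in 11.7% of all genes tested at 0.2 µM and 18.7% at 0.5 µM. Hes1 was called at 0.5 µM and 24 h, with a log2 fold change of 0.62 ± 0.15 (SE, limma adjusted p = 0.00238). The other 3 values, 0.15 at 0.2 µM and 12 h (adjusted p = 0.52), 0.30 at 0.5 µM and 12 h (adjusted p = 0.128) and 0.22 at 0.2 µM and 24 h (adjusted p = 0.271), did not pass. The average was 0.32 ± 0.08 (adjusted p = 0.000836). At 0.5 µM and 12 h, median-of-ratios scaling gave 0.41 (adjusted p = 0.0217), and leaving out replicate 2 of (−)-JQ1 gave 0.44 (adjusted p = 0.0386).

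Among the Hey genes, Hey2, a Notch effector that keeps progenitors undifferentiated, was higher under (+)-JQ1 in every comparison. At 12 h it stood at 9.14, 9.17 and 7.03 FPKM in (+)-JQ1 libraries with 0.2 µM, against 4.62, 6.37 and 4.50 FPKM in (−)-JQ1 libraries. With 0.5 µM it stood at 9.11, 10.9 and 7.09 FPKM in (+)-JQ1, against 5.33, 5.66 and 3.77 FPKM in (−)-JQ1. The enantiomers did not overlap at either dose. At 24 h and 0.2 µM the values were 8.16, 7.13 and 7.08 FPKM in (+)-JQ1, against 5.06, 4.83 and 4.12 FPKM in (−)-JQ1, and at 0.5 µM 10.0, 10.1 and 8.20 FPKM in (+)-JQ1, against 4.56, 5.18 and 4.37 FPKM in (−)-JQ1. No (+)-JQ1 library of Hey2 was under 7.03 FPKM and no (−)-JQ1 library above 6.37 FPKM. Every (+)-JQ1 library was above every (−)-JQ1 library in all 4 comparisons for 6.6% of the genes tested, Hey2 among them. The share of genes without overlap over all doses and times together was not computed. Replicate 3 was the lowest of its group in all 8 groups. The log2 fold changes were 0.62, 0.76, 0.58 and 0.87 at 0.2 µM and 12 h, 0.5 µM and 12 h, 0.2 µM and 24 h, and 0.5 µM and 24 h, with an SE of 0.15 each. The limma adjusted p-values, in the same order, were 0.00429, 0.000479, 0.00644 and 0.000113. The average was 0.71 ± 0.08 (adjusted p = 6.63e-08), the smallest adjusted p among the 5 genes, and no alternative tried removed a call of Hey2 in these comparisons.

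Hey1, its close relative, differed little between the enantiomers. At 12 h it stood at 24.1, 25.2 and 27.2 FPKM in (+)-JQ1 libraries with 0.2 µM, against 25.2, 23.4 and 26.2 FPKM in (−)-JQ1 libraries. With 0.5 µM it stood at 28.4, 31.1 and 25.8 FPKM in (+)-JQ1, against 23.4, 23.3 and 25.4 FPKM in (−)-JQ1. The groups overlapped at 0.2 µM and were just apart at 0.5 µM, where 20.7% of all genes tested had every (+)-JQ1 library above every (−)-JQ1 library. At 24 h and 0.2 µM the values were 24.4, 31.9 and 23.7 FPKM in (+)-JQ1, against 29.7, 21.8 and 27.1 FPKM in (−)-JQ1, and at 0.5 µM 24.5, 26.0 and 21.95 FPKM in (+)-JQ1, against 19.2, 22.6 and 19.4 FPKM in (−)-JQ1. The groups overlapped at both doses. The log2 fold change was 0.03 at 0.2 µM and 12 h (limma adjusted p = 0.896, 95% interval -0.22 to 0.28) and 0.02 at 0.2 µM and 24 h (adjusted p = 0.912, 95% interval -0.23 to 0.27). At 0.5 µM it was 0.23 at 12 h (adjusted p = 0.137, 95% interval -0.02 to 0.48) and 0.23 at 24 h (adjusted p = 0.134, 95% interval -0.01 to 0.48). The average was 0.13 ± 0.06 (adjusted p = 0.0664), with a 95% interval of 0.005 to 0.253, and larger changes lie outside it. Hey1 rests on the scaling: with median-of-ratios values it was called at 0.5 µM and 12 h (0.35, adjusted p = 0.0112), at 0.5 µM and 24 h (0.33, adjusted p = 0.0159) and on average (0.23, adjusted p = 0.000707). On average it was also called without the 2 libraries high in Mir5105 (0.12, adjusted p = 0.0472), and in 5 cases with 1 library left out: replicate 3 of (+)-JQ1 at 0.5 µM and 12 h (adjusted p = 0.0476), at 0.2 µM and 24 h (0.041) or at 0.5 µM and 24 h (0.046), or replicate 1 of (−)-JQ1 at 0.2 µM and 24 h (0.0281) or 2 at 0.5 µM and 24 h (0.0432). With the spread of its own 6 libraries, the value at 0.5 µM and 12 h was called too (adjusted p = 0.0474).

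Heyl, the third Hey gene, is known chiefly from vascular smooth muscle. Its low values are whole multiples of the smallest step within 0.25 step in all 24 libraries. That step was taken as 1 read, which gives the reads behind the values as an estimate. All estimates above 1 were even, so the step may be less than 1 read and the true reads fewer. At 12 h these were 2, 0 and 2 reads in (+)-JQ1 libraries with 0.2 µM and 0, 1 and 2 with 0.5 µM, against 6, 4 and 1 in (−)-JQ1 libraries with 0.2 µM and 8, 6 and 4 with 0.5 µM. At 24 h they were 0, 1 and 0 reads in (+)-JQ1 with 0.2 µM and 2, 0 and 1 with 0.5 µM, against 8, 4 and 4 in (−)-JQ1 with 0.2 µM and 4, 6 and 2 with 0.5 µM. By this estimate the 12 (+)-JQ1 libraries held 11 reads in all and 5 of them were listed at 0, while the 12 (−)-JQ1 libraries held 57 reads and none was at 0. At these depths no fold change is given. The difference in mean log2(FPKM + 1) was -0.10 over the 4 comparisons (exact two-sided permutation test within dose and time, p = 8.75e-05, where the smallest possible was 1.25e-05). Within 1 comparison the exact p was 0.3 at 0.2 µM and 12 h and 0.1, the smallest possible, in each of the others. With no filter on low values, limma called Heyl lower at 0.5 µM and 12 h (adjusted p = 0.00918), beside 4012 of 21657 genes called lower. It was also called lower at 0.2 µM and 24 h (adjusted p = 0.0104), beside 3576 of 21657. On average it was called at -0.10 ± 0.02 (adjusted p = 8.99e-05), beside 6791 of 21657 genes called lower. Heyl was not called at 0.2 µM and 12 h (adjusted p = 0.303) or 0.5 µM and 24 h (adjusted p = 0.103). At 0.5 µM and 24 h the highest (+)-JQ1 and the lowest (−)-JQ1 library both held 2 reads.

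The summed level of vessel-wall markers, which came mostly from Acta2 and Tagln, was lower in (+)-JQ1 libraries, as that of Heyl was. The 8 markers of pericytes and smooth muscle summed to 32.3 to 109 FPKM (median 48.3) in (+)-JQ1 libraries, against 69.2 to 264 FPKM (median 118.5) in (−)-JQ1 libraries. Kcnj8 was at 0 in all 24 libraries and Rgs5 in all (+)-JQ1 libraries, and all 3 members that could be tested were called lower on average. Acta2, smooth muscle actin, averaged 38.9 ± 12.2 FPKM in (+)-JQ1 and 92.4 ± 33.1 FPKM in (−)-JQ1 libraries (SD, n = 12 each), and Tagln, transgelin, 17.2 ± 12.1 and 46.7 ± 36.0 FPKM in that order. The 8 markers of endothelium summed to 0.581 to 2.71 FPKM in (+)-JQ1 and 0.764 to 6.85 FPKM in (−)-JQ1 libraries, and Kdr, a receptor for vascular endothelial growth factor and the only one tested, was lower, at -0.82 ± 0.14. Some markers too low to be tested, named after their values were seen, averaged more in (+)-JQ1. Myh11, a smooth muscle myosin, had 0.168 ± 0.045 FPKM in (+)-JQ1 and 0.108 ± 0.033 FPKM in (−)-JQ1 libraries (SD, n = 12 each), Abcc9 0.2295 ± 0.046 and 0.200 ± 0.039 FPKM in that order, and the endothelial gene Pecam1 0.1305 ± 0.072 and 0.0661 ± 0.041 FPKM. The part of these markers in the values of Heyl was not tested.

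The size of the change differed between the genes. The difference between 2 genes in their average log2 change was tested within dose and time for all 10 pairs of the 5 genes, a test added after the values were seen, with exact two-sided permutation and p-values adjusted over the 10 pairs. Hes5 changed by 0.94 more than Hey1 (adjusted p = 6.25e-05) and Hes6 by 0.82 more than Hey1 (adjusted p = 6.25e-05). Hey1 less Hey2 was -0.58 (adjusted p = 0.000167), so the Hey genes differed from each other. Hes1 less Hes5 was -0.75 (adjusted p = 0.000594), Hes1 less Hes6 -0.63 (adjusted p = 0.000688) and Hes1 less Hey2 -0.39 (adjusted p = 0.0006). Hes5 less Hey2 was 0.37 (adjusted p = 0.0139). The other 3 pairs did not pass, with 0.12 for Hes5 less Hes6 (adjusted p = 0.276), 0.24 for Hes6 less Hey2 (adjusted p = 0.144) and 0.19 for Hes1 less Hey1 (adjusted p = 0.074). Without the 2 libraries high in Mir5105, an alternative added after seeing the data, the last was 0.20 (adjusted p = 0.0392), and the other 9 pairs kept their sign and their side of the threshold. On the FPKM + 1 scale the change of Hey2, a low gene, is understated more than that of Hes5.

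The 6 genes summed to 252 ± 13.6, 311 ± 29.5, 282 ± 109 and 254 ± 18.5 FPKM in (+)-JQ1 libraries at 0.2 µM and 12 h, 0.5 µM and 12 h, 0.2 µM and 24 h, and 0.5 µM and 24 h (SD, n = 3 each). In (−)-JQ1 libraries the sums, in the same order, were 160.5 ± 9.55, 164 ± 14.9, 166 ± 51.0 and 114 ± 10.3 FPKM. Without the 2 libraries high in Mir5105, the sums at 0.2 µM and 24 h were 219 ± 10.0 FPKM in (+)-JQ1 and 141 ± 39.1 FPKM in (−)-JQ1 libraries (SD, n = 2 each). As shares of these sums, with SD and with no test, Hey1 was below its (−)-JQ1 value in all 4 comparisons. It made up 10.1% ± 0.68 in (+)-JQ1 and 15.6% ± 1.78 in (−)-JQ1 libraries at 0.2 µM and 12 h, and 9.15% ± 0.29 and 14.8% ± 2.17 in that order at 0.5 µM and 12 h. At 24 h it made up 9.91% ± 1.84 in (+)-JQ1 and 16.3% ± 2.70 in (−)-JQ1 at 0.2 µM, and 9.57% ± 1.34 and 17.9% ± 1.38 in that order at 0.5 µM. The ranges of mean ± SD of Hey1 did not overlap in any of the 4. Its own mean FPKM was not below that in (−)-JQ1 in any of them, so the lower share restates the larger sum in (+)-JQ1 libraries. The share of Hes6 differed less and in both directions. At 0.2 µM it was 28.7% ± 2.68 in (+)-JQ1 and 29.6% ± 2.88 in (−)-JQ1 at 12 h, and 27.3% ± 1.88 and 29.1% ± 4.70 in that order at 24 h. At 0.5 µM it was 32.9% ± 3.26 in (+)-JQ1 and 29.96% ± 3.56 in (−)-JQ1 at 12 h, and 33.2% ± 2.69 and 25.5% ± 1.52 in that order at 24 h, the one pair whose ranges did not overlap. Hes5 made up 53.2% ± 2.93 of the (+)-JQ1 sum and 45.0% ± 4.17 of the (−)-JQ1 sum at 12 h with 0.2 µM, and 53.7% ± 6.32 and 42.8% ± 2.60 in that order at 24 h with this dose. These ranges were apart, while at 0.5 µM they overlapped, with 50.6% ± 3.27 in (+)-JQ1 and 45.4% ± 5.92 in (−)-JQ1 at 12 h and 46.1% ± 4.89 and 42.1% ± 4.29 in that order at 24 h.

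Whether dose or time altered the difference between the enantiomers was asked with interaction terms. By limma, none of the 5 genes was called for a difference between doses at 12 h, where 0.0435% of genes were called and none of the 5 had an unadjusted p under 0.05. None was called for it at 24 h, where 0.29% of genes were called and 1 of the 5 had an unadjusted p under 0.05. That gene was Hes6, whose change was 0.85 ± 0.34 larger at 0.5 µM than at 0.2 µM (SE, 95% interval 0.15 to 1.54, adjusted p = 0.704). Without replicate 2 of (−)-JQ1 at 0.2 µM and 24 h, this difference was 1.23 ± 0.25 and was called (adjusted p = 0.041). Without replicate 1 of that group, the library high in Mir5105, it was 0.56 ± 0.31 (adjusted p = 0.5), and without both libraries high in Mir5105 0.82 ± 0.27 (adjusted p = 0.269). Between times, none of the 5 was called at 0.2 µM (0.0217% of genes called) or at 0.5 µM (0.326% of genes called), and none had an unadjusted p under 0.05 at either dose. The 95% intervals of these time differences were widest for Hes5, from -0.62 to 0.96 at 0.2 µM and from -0.60 to 0.98 at 0.5 µM, so changes of that size lie within them. The largest of these differences was that of Hes6 at 0.5 µM, 0.45 ± 0.34 (SE).

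Between 0.5 and 0.2 µM of the same enantiomer, none of the 5 genes was called. Within (+)-JQ1, 0.645% of genes were called at 12 h and 2.15% at 24 h, and none of the 5 had an unadjusted p under 0.05. Within (−)-JQ1, 0% of genes were called at 12 h, where 59 of 13801 had an unadjusted p under 0.05, none of them among the 5. At 24 h, 0.00725% of genes were called within (−)-JQ1, and 2 of the 5 had an unadjusted p under 0.05. Hes6 was at -0.66 ± 0.24 (SE, limma adjusted p = 0.329), from 29.1 ± 2.69 FPKM with 0.5 µM and 49.8 ± 21.4 FPKM with 0.2 µM (SD, n = 3 each). Hey1 was at -0.34 ± 0.12 (adjusted p = 0.329), from 20.4 ± 1.90 and 26.2 ± 4.03 FPKM in that order. Without replicate 2 of (−)-JQ1 at 0.2 µM and 24 h, both were called, beside 1477 of 13754 genes called. Hes6 was then at -1.04 (adjusted p = 0.00307) and Hey1 at -0.46 (adjusted p = 0.0206). Without replicate 1 of that group, the library high in Mir5105, Hes6 was at -0.37 (adjusted p = 0.72) and Hey1 at -0.24 (adjusted p = 0.68). At 0.5 µM and 24 h, the (+)-JQ1 mean of Hes6 was 84.1 ± 7.24 FPKM, and the (−)-JQ1 mean of 29.1 FPKM was the lowest of its 8 groups.

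Between 24 and 12 h, over both doses, Hes1 was the gene of the family that was called. Within (+)-JQ1 it averaged 17.2 ± 2.37 FPKM at 24 h and 12.8 ± 1.71 FPKM at 12 h (SD, n = 6 each), a log2 change of 0.40 ± 0.11 (SE, limma adjusted p = 0.0143). It was 1 of 5 called, where 12.5% of genes were called and 8.81% called higher at 24 h. Without replicate 1 of (+)-JQ1 at 0.5 µM and 24 h, its adjusted p was 0.05. Within (−)-JQ1 Hes1 averaged 12.6 ± 1.17 FPKM at 24 h and 10.9 ± 2.24 FPKM at 12 h, a change of 0.21 ± 0.11 (adjusted p = 0.195). None of the 5 was called within (−)-JQ1, where 15.6% of genes were, and Hes6 alone had an unadjusted p under 0.05, at -0.38 ± 0.17 (adjusted p = 0.134). Hes5 was at -0.34 ± 0.19 (adjusted p = 0.239) there. Without the 2 libraries high in Mir5105, both were called within (−)-JQ1, beside 3372 of 13737 genes called. Hes6 was then at -0.52 (adjusted p = 0.00642) and Hes5 at -0.47 (adjusted p = 0.0153).

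Within a group, some of these genes also varied together from library to library. Deviations of log2(FPKM + 1) from the group mean were compared over the 24 libraries, as a description. The 2 libraries high in Mir5105 were far up for Hes5, by 0.78 in the (+)-JQ1 library and 0.52 in the (−)-JQ1 library, and for Hes6, by 0.53 and 0.57. Hey2 was at -0.05 in that (+)-JQ1 library. Hes5 and Hes6 had a Pearson correlation of 0.73 over 24 libraries and 0.38 over the 22 without these 2. Hes6 and Hey1 had 0.80 over 24 and 0.62 over 22 libraries, and Hes5 and Hey1 0.57 and 0.06. Hes5 and Hey2, which both rose in all 4 comparisons, had 0.21 over 24 and 0.33 over 22 libraries. Values of a library share its depth and its scaling, and the 22-library values were added after the plot was seen.

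**Figure D3:**
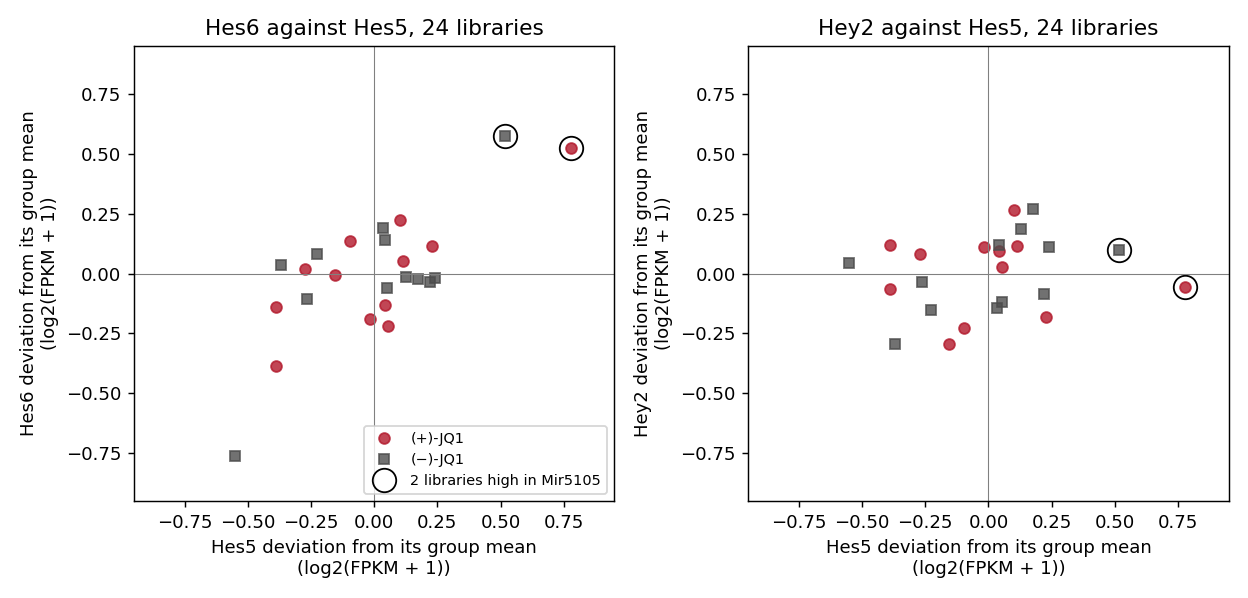
Deviation of Hes6 (left, y axis) and of Hey2 (right, y axis) from their group means against that of Hes5 (x axis), in log2(FPKM + 1), 1 point per library, with circles for (+)-JQ1, squares for (−)-JQ1 and rings round the 2 libraries high in Mir5105. For Hes6 the ringed points lie at the upper right and the correlation is 0.73 with them and 0.38 without; for Hey2 it is 0.21 and 0.33.

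The genes whose deviations were most like those of each repressor, among 8657 compared over the 24 libraries, were different for each. For Hes5 they were Bcan (r = 0.95), which encodes the matrix proteoglycan brevican, the receptor gene Notch3 (r = 0.94) and Slc22a17 (r = 0.94). For Hes6 they were Gnb2l1 (r = 0.96), Mcat (r = 0.96) and Cacng7 (r = 0.95). For Hey1 they were Cdk5rap3 (r = 0.92), the ribosomal protein gene Rpl15 (r = 0.91) and Tsen34 (r = 0.90). Over the 22 libraries without those high in Mir5105, the correlations of these 9 genes with their repressor were lower, at 0.87, 0.86 and 0.89 for Hes5, 0.91, 0.90 and 0.92 for Hes6 and 0.84, 0.82 and 0.82 for Hey1, in the order given. For Hes1 they were Zic2 (r = 0.87), a zinc finger factor of the developing brain, Ctgf (r = 0.85), a secreted matrix protein, and Ogn (r = 0.85). For Hey2 they were Dcbld1, Tacc1 and Ankrd6 (r = 0.88 each). Over the 8 group means, which carry the enantiomer difference, Hes1 was most like Fam118b, Stam2 and Coq10b (r = 0.98 each). Hes5 was most like Adam15 (r = 1.00), Tmem201 and Rbak (r = 0.99 each), and Hes6 like Prkag1, Ppme1 and Trpc4ap (r = 0.99, 0.98 and 0.98). Hey2 was most like Cep120 (r = 1.00), Ap1s2 and Gtdc1 (r = 0.99 each), and Hey1 like 2310009B15Rik, 1110049F12Rik and Fance (r = 0.97, 0.96 and 0.96).

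Upstream of the Hes and Hey genes, Notch ligands and receptors were measured in the same libraries. Counts here are over the average of the 4 comparisons, where the median log2 fold change of all genes tested was -0.08, 61.3% of them were called and 23.1% were called higher. Of the 4 ligand genes tested, 3 were higher and 1 lower under (+)-JQ1, with a median of 0.66. Jag1, a ligand that activates Notch on neighbouring cells, averaged 12.5 ± 4.24 FPKM in (+)-JQ1 and 1.76 ± 0.33 FPKM in (−)-JQ1 libraries (SD, n = 12 each). Its log2 fold change was 2.23 ± 0.07 (SE, limma adjusted p = 3.4e-17). Dll1, the ligand of differentiating neighbours in the cortex, averaged 76.7 ± 22.8 FPKM in (+)-JQ1 and 41.1 ± 12.6 FPKM in (−)-JQ1, a change of 0.89 ± 0.09. Dll3, which dampens Notch within its own cell, was the one that was lower, with 36.6 ± 17.2 and 59.5 ± 14.4 FPKM in that order and -0.82 ± 0.10. Of the 3 receptor genes tested, with a median of 0.52, Notch1 and Notch2 were higher, by 0.52 ± 0.09 and 0.79 ± 0.07, and Notch3 was lower, at -0.56 ± 0.10 on the same scale.

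Between ligand and target the directions were mixed, beside 61.3% of all genes called in this comparison. Of the 12 genes of Fringe enzymes and receptor processing, 5 were higher, 5 lower and 2 did not pass, with a median of -0.11. Mfng, a glycosyltransferase that tunes which ligand a receptor accepts, averaged 0.468 ± 0.375 FPKM in (+)-JQ1 and 8.43 ± 2.50 FPKM in (−)-JQ1 libraries, a change of -2.67 ± 0.10. Of the other Fringe genes, named after their values were seen, Lfng was higher by 0.41 ± 0.06, with 50.9 ± 6.92 and 38.1 ± 6.15 FPKM in that order. Rfng was lower, at -0.25 ± 0.075. The metalloprotease genes Adam10 and Adam17, which make the first cut in the activated receptor, were higher by 0.68 ± 0.07 and 0.57 ± 0.05, and Psenen, a subunit of the gamma-secretase that makes the next one, was at -0.47 ± 0.10. Of the 6 genes of the nuclear complex, 2 were higher, 1 lower and 3 did not pass, with a median of 0.02. Rbpj, the DNA-binding partner of cut Notch, averaged 23.9 ± 2.37 FPKM in (+)-JQ1 and 23.4 ± 2.38 FPKM in (−)-JQ1 libraries, with 0.03 ± 0.06 (adjusted p = 0.694). The acetyltransferase genes Ep300 and Crebbp were higher by 0.19 each, and Kat2b was lower, at -0.28.

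Other genes of the pathway's output also moved in both directions, again beside 61.3% of all genes called. Of the 9 genes of feedback and turnover, 4 were higher, 3 lower and 2 did not pass, with a median of 0.10. Nrarp, a Notch target that limits Notch signalling, averaged 34.7 ± 7.92 FPKM in (+)-JQ1 and 26.6 ± 7.32 FPKM in (−)-JQ1 libraries, a change of 0.39 ± 0.07 (limma adjusted p = 6.11e-05). Of the Deltex genes, Dtx4 was higher by 0.53 ± 0.05, while Dtx1 and Dtx3 were at -1.04 ± 0.06 and -0.51 ± 0.06. Of the 12 Groucho and other corepressor genes, 3 were higher, 5 lower and 4 did not pass, with a median of -0.07. Tle1, a full-length Groucho corepressor, averaged 37.2 ± 6.42 FPKM in (+)-JQ1 and 21.6 ± 3.47 FPKM in (−)-JQ1, a change of 0.75 ± 0.08, and the deacetylase gene Sirt1 was higher by 0.78 ± 0.06. Aes, a short Groucho relative that lacks the repression domain, was at -1.01 ± 0.06 with 44.4 ± 8.45 and 89.0 ± 6.97 FPKM in that order, and Tle6 at -0.70 ± 0.07.

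**Figure D4:**
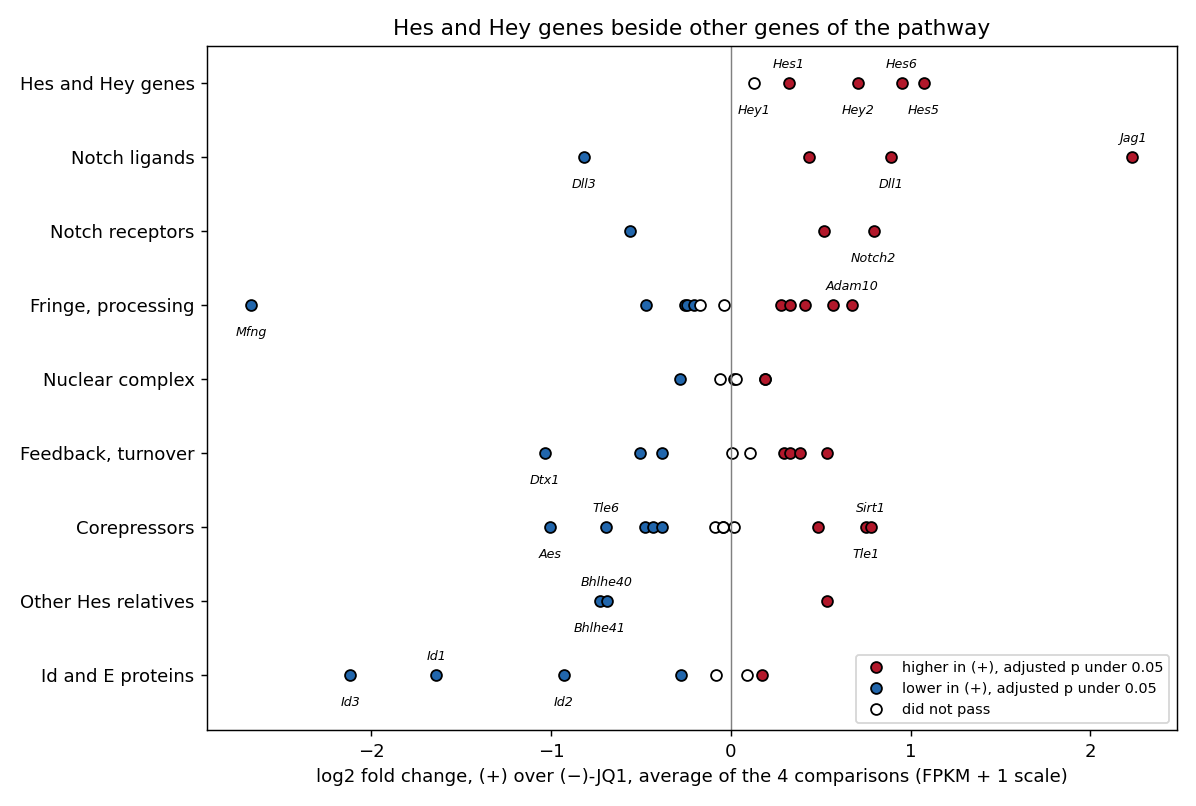
Average log2 fold change of (+)-JQ1 over (−)-JQ1 on the FPKM + 1 scale (x axis) for each tested gene of the family and of 8 related lists (y axis), 1 circle per gene, filled where limma adjusted p was under 0.05 and open where it was not. In the Hes and Hey row 4 circles are filled on the higher side and Hey1 is open at 0.13, while ligands run from -0.82 for Dll3 to 2.23 for Jag1.

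Neurog2, the proneural factor of cortical excitatory neurons and a gene that Hes proteins repress, was below 1 FPKM on average with both enantiomers. It averaged 0.453 ± 0.238 FPKM in (+)-JQ1 and 0.970 ± 0.323 FPKM in (−)-JQ1 libraries (SD, n = 12 each), a change of -0.44 ± 0.08 (limma adjusted p = 2.96e-05). Neurod1, a factor of differentiating neurons, was at -0.29 ± 0.09. Other proneural genes are not reported here, so Neurog2 and Neurod1 do not give the direction of proneural genes as a set. Of the related bHLH repressors outside the 6, Hes2 was at 0 in all 24 libraries, Hes3 had a median of 0.0263 FPKM in (+)-JQ1 and 0.276 FPKM in (−)-JQ1, and Hes7 0.113 and 0.322 FPKM. Helt was higher by 0.53 ± 0.12, with 6.71 ± 2.36 and 4.33 ± 1.60 FPKM in that order. Bhlhe40 and Bhlhe41, which carry an Orange domain too, were lower, at -0.69 ± 0.09 and -0.73 ± 0.12, and the median of these 3 was -0.69. Among the Id and E proteins, helix-loop-helix partners without or with a DNA-binding region, 1 of 7 was higher, 4 were lower and 2 did not pass, with a median of -0.28, beside the same 61.3% of all genes called. Id3 was at -2.12 ± 0.18 and Id1 at -1.64 ± 0.13, while Id4 was at 0.17 ± 0.07.

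Markers of progenitors and of the cell types they give rise to were also called in both directions, in the same average comparison where 61.3% of all genes were called and 23.1% called higher. Of the 10 neural stem and radial glia markers, 6 were higher, 3 lower and 1 did not pass. Nes, the progenitor filament nestin, was at 0.66 ± 0.08 and Fabp7, a radial glial lipid carrier, at 0.64 ± 0.13, while Prom1 was at -0.89 ± 0.12 and Hopx at -0.81 ± 0.16. Of the 9 neuron markers tested, 4 were higher, 4 lower and 1 did not pass, with Syt1 at 0.77 ± 0.06 and Tubb3 at 0.75 ± 0.09 but Dcx at -0.97 ± 0.09 and Rbfox3 at -0.90 ± 0.06. Of the 8 astrocyte markers, 1 was higher and 7 lower, among them Aqp4, a water channel, at -2.54 ± 0.10, and S100b at -3.02 ± 0.11, with Fgfr3 at 0.29 ± 0.09. Of the 9 oligodendrocyte lineage markers, 8 were lower and none higher, with Gpr17 at -4.41 ± 0.11 and Enpp6 at -3.81 ± 0.07. The astrocyte markers summed to 477 to 1086 FPKM in (+)-JQ1 and 977 to 1783 FPKM in (−)-JQ1 libraries, and the oligodendrocyte lineage markers to 415 to 1195 and 1504 to 2140 FPKM in that order. The part of these markers in the values of the Hes and Hey genes was not tested.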

How the data were processed

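RNA-seq of poly(A)-selected RNA from 24 libraries was analysed. Per the labels, 50-base single-end reads were sequenced on a HiSeq2000; per the submitters' processing notes, FastQC and TopHat2 were used with build mm9, with versions not given in the sources used here. Values deposited by the authors are FPKM per gene symbol; the unit was read from the values, whose smallest steps fall with transcript length, and the program, annotation and any scaling between libraries are not given in the sources used here. Of 26694 entries, 58 of 29 repeated symbols were left out. Low values were read as whole reads within 0.25 read for Heyl only; these estimates cover counting error only.

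The main test, limma 3.58.1 in R 4.3.3, took log2(FPKM + 1) of genes that reached 1 FPKM in 3 or more libraries. The model held a mean per group over all 24 libraries, which leaves 16 residual degrees of freedom, and eBayes used its trend and robust options. It was tested on simulated data. The 4 comparisons of the enantiomers share no libraries, while dose, time and interaction terms reuse them. The 6 genes, the lists of related genes and of cell type markers, and the tests were chosen with earlier results of these data known. Genes outside the family were named by rule: in each list, the 2 called genes with the largest average rise and the 2 with the largest fall, plus Notch1, Rbpj, Jag1, Dll1 and Neurog2; and the 3 genes of at least 5 FPKM on average most correlated with each repressor. Results for some genes that the rule names are not reported here. Maml2, a repeated symbol, and Map2 were not used here. Alternatives were pseudocounts of 0.1 and 0.5, no filter, a minimum of 5 FPKM, median-of-ratios scaling, a replicate block, a spread from the compared libraries only, and leaving out each library or the 2 high in Mir5105.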

Additional observations from a re-analysis of the deposited data

How the results depend on the processing

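Of 670 values of the 5 genes under alternatives other than a left-out library, 649 kept their direction and their side of the threshold, 4 lost a call, 11 gained one and 6 changed sign, and of 1800 values with 1 library left out, 1733 kept both and 48 changed sign; the cause was not tested. With median-of-ratios scaling 5 genes of the family were called at 0.5 µM and 12 h, beside 5629 of 13765 genes called. With this scaling Hey1 changed sign in the difference of the enantiomer effect between times at 0.2 µM (0.0049) and at 0.5 µM (-0.020). With the 6 compared libraries only, 1 gene of the family was called at 0.2 µM and 24 h, beside 1954 of 12973 genes called. Without the 2 libraries high in Mir5105, 2 genes of the family were called between times within (−)-JQ1, beside 3372 of 13737 genes called. Without these libraries 4 values changed sign: Hey1 in (+)-JQ1 against (−)-JQ1 at 0.2 µM and 24 h (-0.016), Hey2 in the time difference at 0.2 µM (0.036), and Hes5 (0.082) and Hey1 (0.0039) in 0.5 against 0.2 µM within (+)-JQ1 at 24 h. With 1 library left out at a time, the genes called ranged from 1 to 3 at 0.2 µM and 12 h, 2 to 3 at 0.2 µM and 24 h, 0 to 1 for the dose difference at 24 h, 0 to 2 between doses within (−)-JQ1 at 24 h, and 0 to 1 between times within either enantiomer. Log2 values that changed sign with 1 library left out, none of them called, are given by their lowest and highest. For (+)-JQ1 against (−)-JQ1 at 0.2 µM and 12 h, the range was -0.028 to 0.32 for Hes1 and -0.015 to 0.069 for Hey1. For (+)-JQ1 against (−)-JQ1 at 0.2 µM and 24 h, the range was -0.11 to 0.12 for Hey1. For the difference of the enantiomer effect between doses at 12 h, the range was -0.022 to 0.32 for Hes1 and -0.0081 to 0.29 for Hey2. For the same difference at 24 h, the range was -0.045 to 0.60 for Hes5. For the difference of the enantiomer effect between times at 0.2 µM, the range was -0.10 to 0.25 for Hes1, -0.22 to 0.43 for Hes5, -0.33 to 0.34 for Hes6, -0.14 to 0.085 for Hey1 and -0.18 to 0.033 for Hey2. For the same difference between times at 0.5 µM, the range was -0.062 to 0.075 for Hey1 and -0.035 to 0.26 for Hey2. For 0.5 against 0.2 µM within (+)-JQ1 at 12 h, the range was -0.054 to 0.23 for Hey2. For 0.5 against 0.2 µM within (+)-JQ1 at 24 h, the range was -0.50 to 0.082 for Hes5, -0.0059 to 0.45 for Hes6 and -0.20 to 0.0039 for Hey1. For 0.5 against 0.2 µM within (−)-JQ1 at 12 h, the range was -0.12 to 0.23 for Hes1, -0.085 to 0.22 for Hes5 and -0.15 to 0.088 for Hey2. For 0.5 against 0.2 µM within (−)-JQ1 at 24 h, the range was -0.062 to 0.059 for Hey2. For 24 against 12 h within (+)-JQ1, the range was -0.11 to 0.025 for Hey2. The labels number the libraries of each group and do not say that a number marks the same preparation across groups. The correlation of deviations was over 0.1 in 7 of 12 same-numbered pairs, from -0.345 to 0.358, and replicate numbers were not taken to pair libraries. 15 of 24 libraries correlated best with their own number among the 3 libraries of the other enantiomer at the same dose and time, a hint from the data and not from the design. With a replicate block the call of Hes6 at 0.2 µM and 24 h was lost (0.65, limma adjusted p = 0.0518), and no other call of the family changed. Heyl rests on at most 8 estimated reads in a library.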
